A study of Homo sapiens with 13 samples.

Results

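The genes examined here were 41 genes of mitosis and of the G2 to M transition, the last steps before and during cell division. They were taken by gene name from the raw count table of an mRNA-seq study. The rule itself reads no measured value, but the list was drawn up with earlier results of these data known. All 41 were among the 43836 genes of the table, and all 41 passed the filter on low counts, which left 17092 genes for testing. The cells were hFOB 1.19 osteoblasts, a human fetal osteoblast line immortalized with a temperature-sensitive SV40 large T antigen, so the brakes on its cell cycle are not those of a primary osteoblast. Positive controls (PC, 2 libraries) were grown with 10% fetal bovine serum (FBS), and negative controls (NC, 2 libraries) were serum-starved. Both controls received the DMSO vehicle. The other groups were serum-starved as well and received a compound at 1 µg/mL. They were resveratrol (RES, 3 libraries), a plant stilbene, peonidin-3-O-glucoside (POG, 3 libraries), an anthocyanin, and DEG (2 libraries), an abbreviation that the labels did not spell out. The question was how far FBS and each compound moved the division genes of starved osteoblasts.

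Cells enter mitosis when the kinase CDK1, bound to cyclin B, is switched on by the CDC25 phosphatases. The spindle checkpoint then holds the anaphase-promoting complex in check until every kinetochore is attached, after which CDC20 directs the destruction of cyclin B and securin. Most of these genes are transcribed late in the cycle. Their promoters often carry a cell cycle homology region (CHR) and CCAAT boxes, which are bound by the MuvB complexes with MYBL2 and FOXM1 and by NF-Y. In quiescent cells the DREAM complex, which shares the MuvB core, represses them.

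The RefSeq promoter table held 35 of the 41 genes. Promoters were not used for AURKA, TTK, BUB3, UBE2C, BIRC5 and TPX2. The 250 bases before the RefSeq start were searched on both strands for the CHR (TTTGAA or TTCGAA), the CCAAT box (CCAAT) and E2F-type letters (TTCCCGC as well as TTGGCGC, further TTCGCGC and also TTGCCGC). A CHR was found in 19 of 35 promoters (54.3%), against 9.75% of the 11712 promoters of tested genes. A CCAAT box was found in 27 (77.1%), against 34.5% of tested genes, and both motifs together in 17 (48.6%), against 3.83%. A CHR within 65 bases of the start was present in 14 of 35 (40.0%), against 1.69% of tested genes. That limit falls on the far edge of a CHR of CDC20, so this share is a description only. The E2F-type letters were found in 9 of 35 (25.7%), against 17.0% of tested genes. The promoters of 5 genes follow, 5′ to 3′ on the strand of the gene (GRCh38.p14, RefSeq), since CDC20 and CKS2 were among the genes that moved most with FBS, CDK1 and MKI67 were among those that moved most between compounds, and TOP2A is described throughout. They lay at chr1:43358731-43358980 (CDC20, plus strand), chr9:89310945-89311194 (CKS2, plus strand), chr10:60778081-60778330 (CDK1, plus strand), chr17:40417897-40418146 (TOP2A, minus strand) and chr10:128126424-128126673 (MKI67, minus strand). Capitals mark CHR and CCAAT letters on either strand, read as TTCAAA and ATTGG where they lie on the opposite one.
CDC20: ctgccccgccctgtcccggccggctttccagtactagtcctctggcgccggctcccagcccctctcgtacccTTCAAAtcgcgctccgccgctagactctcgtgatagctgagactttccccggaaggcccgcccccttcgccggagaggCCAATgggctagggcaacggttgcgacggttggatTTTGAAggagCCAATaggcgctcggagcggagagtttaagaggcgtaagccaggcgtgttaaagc
CKS2: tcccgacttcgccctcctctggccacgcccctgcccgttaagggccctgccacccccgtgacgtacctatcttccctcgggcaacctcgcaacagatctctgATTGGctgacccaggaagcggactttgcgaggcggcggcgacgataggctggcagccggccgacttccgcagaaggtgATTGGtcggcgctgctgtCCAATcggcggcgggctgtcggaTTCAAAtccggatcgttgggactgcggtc
CDK1: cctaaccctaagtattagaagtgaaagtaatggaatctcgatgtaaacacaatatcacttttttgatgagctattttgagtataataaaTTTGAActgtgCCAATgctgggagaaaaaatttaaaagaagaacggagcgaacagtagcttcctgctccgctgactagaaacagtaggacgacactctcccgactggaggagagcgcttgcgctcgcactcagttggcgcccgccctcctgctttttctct
TOP2A: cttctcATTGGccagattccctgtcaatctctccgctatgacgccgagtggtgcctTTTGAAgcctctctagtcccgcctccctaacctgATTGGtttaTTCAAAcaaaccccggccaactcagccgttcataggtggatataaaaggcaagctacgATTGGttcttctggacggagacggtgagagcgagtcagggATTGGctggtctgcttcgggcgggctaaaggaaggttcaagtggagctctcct
MKI67: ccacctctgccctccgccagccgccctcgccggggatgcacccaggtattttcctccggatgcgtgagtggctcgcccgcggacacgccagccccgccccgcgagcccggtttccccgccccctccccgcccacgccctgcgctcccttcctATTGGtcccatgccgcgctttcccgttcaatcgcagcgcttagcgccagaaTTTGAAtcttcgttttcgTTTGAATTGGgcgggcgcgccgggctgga
In CDC20 a CHR lay 65 to 60 bases before the start, with a CCAAT box at 55 to 51 bases. In CKS2 it lay at 29 to 24 bases, downstream of 3 CCAAT boxes. MKI67 had a CHR at 47 to 42 bases and another at 29 to 24 bases, the latter sharing its last base with a CCAAT box on the opposite strand. In CDK1 the CHR lay farther out, at 161 to 156 bases. A match of letters is a description of the window and says nothing of binding in these cells.

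**Figure D1:**
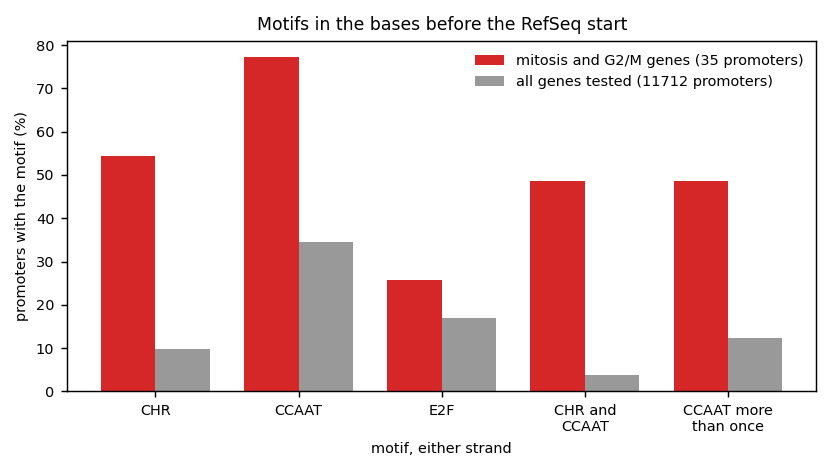
Share of promoters (y axis, %) with each motif in the 250 bases before the RefSeq start, for 35 mitosis and G2/M genes (red) and 11712 tested genes (grey). The CHR was present in 54.3% of the former and 9.75% of the latter.

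Library totals ran from 38464619 to 51416358 counted reads, and each of the 41 genes had between 1439 and 43341 reads in every library. CPM is the read count scaled to the library size after TMM normalization. The osteoblast marker list was expressed at a summed 4750 to 5521 CPM, led by the collagens COL1A1 and COL1A2. Of its 7 markers 6 passed the filter on low counts, and SP7 (osterix) did not. In NC, SPARC was at 1046 CPM and RUNX2 at 47.1 CPM, but ALPL only at 4.07 and BGLAP at 1.49 CPM. The sum therefore says little of ALPL, BGLAP and SP7. The leukocyte and epithelial lists summed to at most 1.88 and 0.69 CPM. The endothelial list summed to 51.8 to 58.4 CPM with RES, 55.1 to 58.3 CPM in PC, 34.5 to 37.1 CPM with POG, 37.3 to 37.8 CPM with DEG and 41.6 to 43.5 CPM in NC, nearly all of it from TEK with CDH5 near 0. Its part in the results was not tested. In bulk RNA, fewer cells in mitosis and less of an mRNA per dividing cell cannot be told apart.

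The PC libraries stood apart from each other by transcript length. Over the 41 genes, the log2 difference between PC replicate 2 and PC replicate 1 rose with the length of the longest annotated transcript (Spearman rho 0.69, a description over genes of 2 libraries), and it did so over 5731 genes of like level (rho 0.72). Over those genes, the other pairs of replicates gave rho between -0.03 and 0.04. Over the 41 alone those pairs gave rho from -0.36 (NC) to 0.36 (RES replicates 1 and 3). The long mRNAs of ASPM, CENPF, MKI67, CENPE and TOP2A were lower in PC replicate 1 than in replicate 2. BUB3 (7703 bases) and MAD2L1 (5227 bases) were not (log2 differences -0.02 and -0.06, replicate 2 minus replicate 1). Results for PC against NC are therefore also given without each PC library, and those for PC against the compounds in part. The cause of the difference was not tested.

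**Figure D2:**
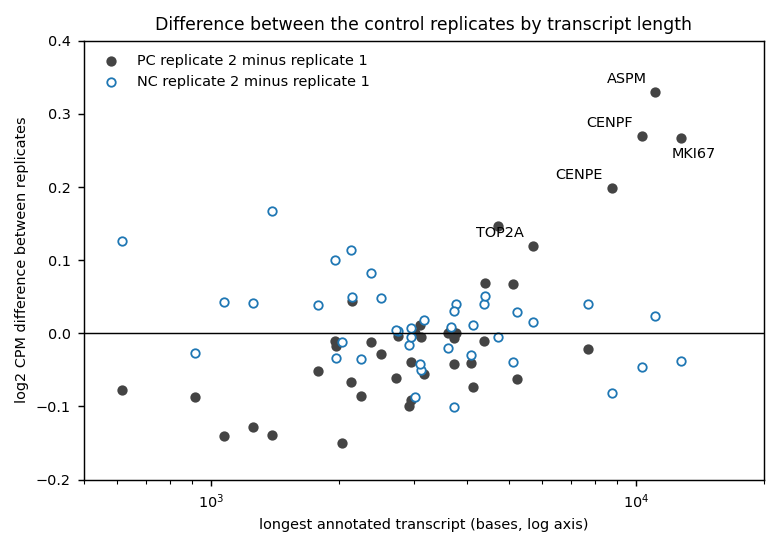
Log2 CPM difference between replicate 2 and replicate 1 (y axis) against the longest annotated transcript in bases (x axis, log scale) for the 41 genes, in PC (filled) and NC (open). In PC the long mRNAs of ASPM, CENPF, MKI67 and CENPE lay highest, and in NC they did not (rho -0.36 over the 41 genes).

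All 41 genes were well expressed in every group, serum-starved cells included. Mean levels ran from 40.8 CPM for CENPA, the histone H3 variant of centromeres, to 862 CPM for MKI67, the proliferation antigen that coats mitotic chromosomes. Per kb of transcript the highest levels were those of UBE2C (173 CPM per kb), the ubiquitin-conjugating enzyme of the anaphase-promoting complex, PTTG1 (149), which encodes securin, and CKS2 (143), a small CDK subunit. The lowest were CENPE (13.4 CPM per kb), a kinetochore motor, and MAD2L1 (17.7), a core checkpoint protein. The summed level of the 41 genes was 8316 ± 167 CPM in PC (SD, n = 2), 7530 ± 1.69 in NC (n = 2), 7230 ± 42.5 with RES (n = 3), 7978 ± 37.3 with POG (n = 3) and 7881 ± 3.28 with DEG (n = 2). No sum of one group overlapped that of another. PC had the highest group mean for 29 of the 41 genes, POG for 7, DEG for 3, and NC and RES for 1 each. RES had the lowest mean for 20 genes and NC for 13. The median coefficient of variation between replicates was 1.13% to 3.02% across groups.

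**Figure D3:**
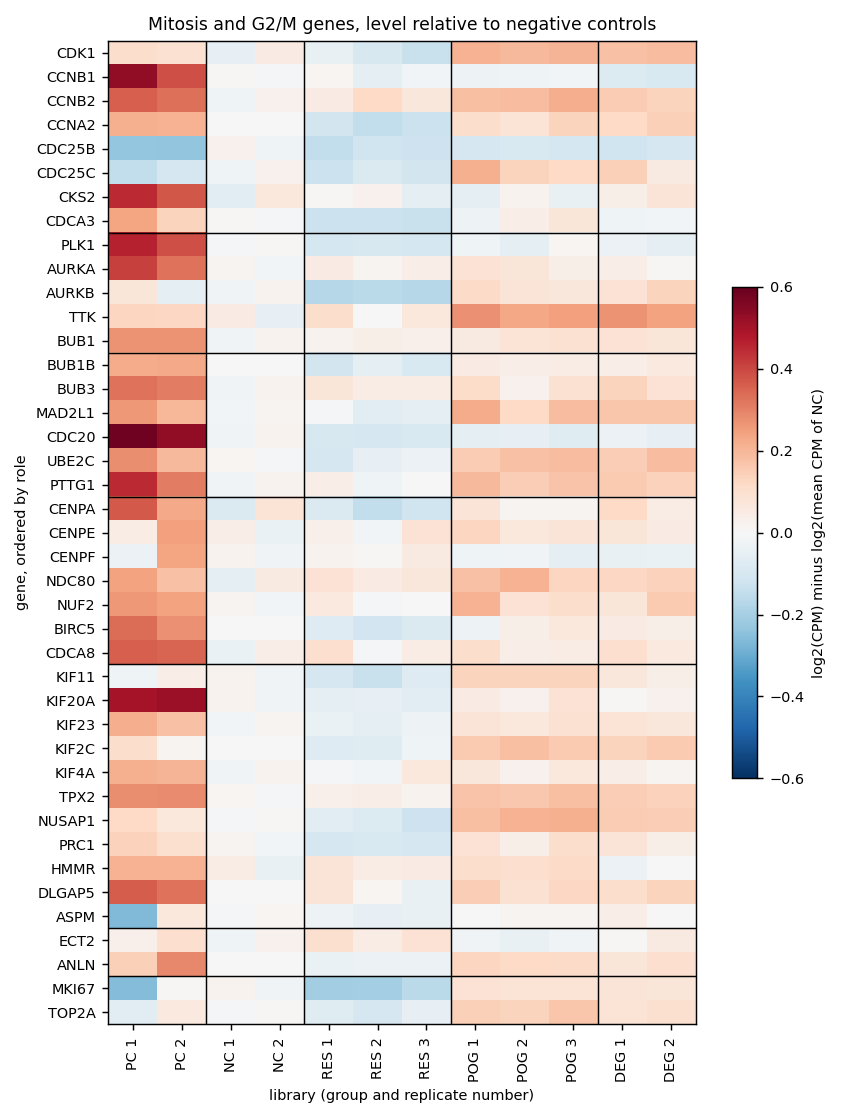
Log2 level of each of the 41 genes (rows, ordered by role with lines between roles) in each library (columns), relative to the mean of the NC libraries. PC is highest for 29 genes, mostly red through cyclin B1, PLK1, CDC20 and KIF20A, while the POG and DEG columns are moderately red and the RES columns mostly blue or pale.

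Comparison of PC with NC showed a broad but small rise of the division genes with FBS. Of 41 genes, 31 were higher and 2 lower at a false discovery rate (FDR) under 0.05 (edgeR exact test, Benjamini-Hochberg over 17092 genes), with a median log2 change of 0.21. Of all tested genes 21.5% were higher and 20.9% lower, and of the 5733 genes at or above the level of the least expressed of the 41, 32.9% and 30.5%. The median over all tested genes was -0.01. Without PC replicate 1 the counts were 32 and 1, and without PC replicate 2 they were 31 and 3.

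CDC20, KIF20A, CCNB1 and PLK1 had the largest rises. CDC20 (chr1:43358981-43363203, hg38), which activates the anaphase-promoting complex, was at 246 and 238 CPM in PC against 162 and 167 CPM in NC. That is a log2 change of 0.56 (SE 0.03, edgeR FDR 5.04e-48), or 1.47-fold. KIF20A, the kinesin that carries the passenger complex to the central spindle, stood at 179 and 180 CPM in PC and 128 and 125 CPM in NC (log2 change 0.51, SE 0.04, edgeR FDR 8.85e-37). For both genes the PC libraries lay far above NC with no overlap. CCNB1 (chr5:69167135-69178245), which encodes cyclin B1, was at 228 and 205 CPM against 158 and 157 CPM (log2 change 0.46, SE 0.04, edgeR FDR 4.63e-25). PLK1, the kinase that triggers mitotic entry and centrosome maturation, was at 275 and 261 CPM against 199 and 200 CPM (log2 change 0.43, SE 0.03, edgeR FDR 5.39e-27). These 4 genes, with CKS2 at 0.41, made up the upper end of the range.

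By role, all 6 genes of the spindle checkpoint and anaphase ubiquitination rose, from 0.23 for BUB1B, MAD2L1's partner in the checkpoint complex, to 0.56 for CDC20. Of the 7 centromere, kinetochore and passenger complex genes, 6 rose, with BIRC5 (survivin) and CDCA8 (borealin), partners of Aurora B, at 0.31 and 0.35. Among the 5 mitotic kinases 4 rose, and AURKB itself, at 164 and 150 CPM against 154 and 158 CPM, did not pass the test (log2 change 0.01). Of 11 spindle motors and microtubule binders 8 rose. KIF11, the bipolar kinesin, KIF2C, which depolymerizes microtubules, and ASPM, a spindle pole protein, did not pass. Of the 8 genes of the CDK1 engine and its switches 6 rose and 1 fell. The catalytic subunit CDK1 (chr10:60778331-60794852) was at 162 and 161 CPM against 145 and 156 CPM (log2 change 0.10, SE 0.04, edgeR FDR 0.0417). That call was lost without NC replicate 1 (edgeR FDR 0.516).

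The genes that fell with FBS were CDC25B and MKI67. CDC25B (chr20:3786772-3806121), the phosphatase that starts CDK1 activation at the centrosome, was at 294 and 293 CPM in PC against 352 and 340 CPM in NC. The groups did not overlap, and the log2 change was -0.23 (SE 0.03, edgeR FDR 2.78e-10). MKI67 (chr10:128096659-128126423) was at 735 and 885 CPM in PC against 892 and 869 CPM in NC (log2 change -0.12, SE 0.04, edgeR FDR 0.0415). The PC replicates were farther apart than the groups, and without PC replicate 1 the log2 change was 0.01 (edgeR FDR 0.785). TOP2A (chr17:40388525-40417896), the topoisomerase that untangles chromosomes, was at 678 and 737 CPM against 705 and 713 CPM, a log2 change of 0.00 (edgeR FDR 0.988) that was 0.06 without PC replicate 1 (edgeR FDR 0.066). CDC25C, the other CDC25 phosphatase listed, was at 38.3 and 39.5 CPM against 41.6 and 43.1 CPM and did not pass. Across the 41 genes the log2 change fell with transcript length (rho -0.41, -0.24 without PC replicate 1 and -0.52 without PC replicate 2).

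**Figure D4:**
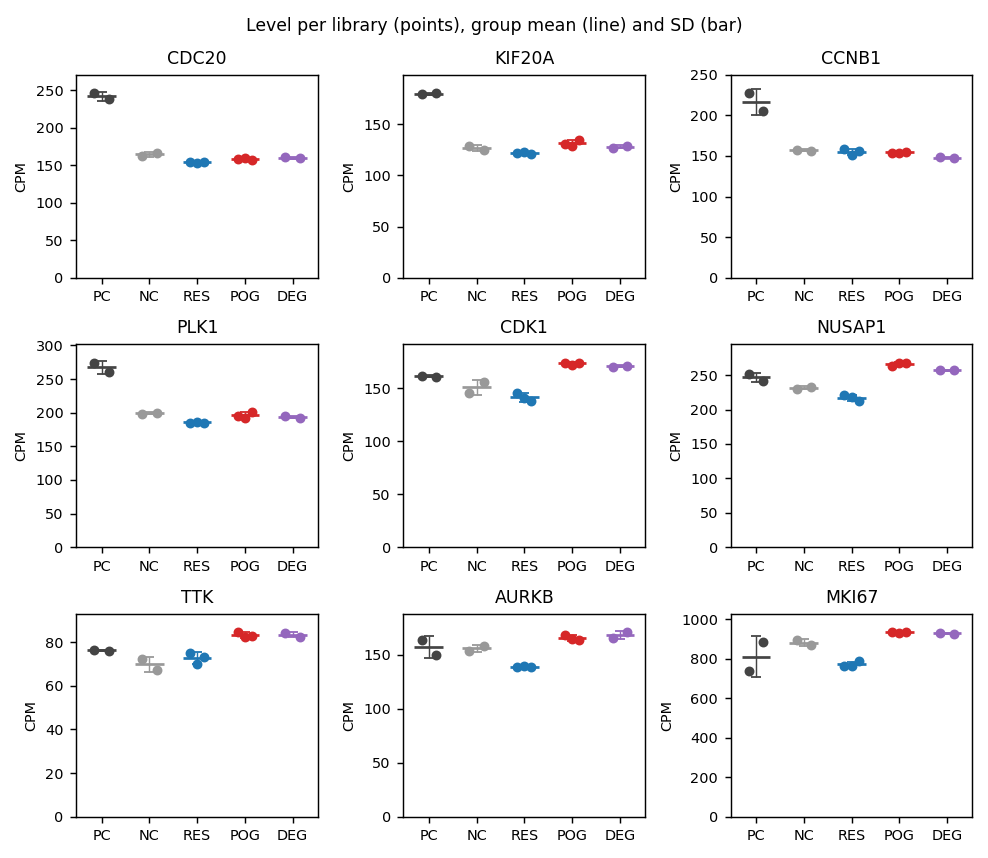
CPM per library (y axis, from 0) in each of the 5 groups (x axis) for 9 genes, with points for libraries, a line for the group mean and a bar for the SD. PC stands alone for CDC20, KIF20A, CCNB1 and PLK1, whereas POG and DEG are highest for CDK1, NUSAP1 and TTK and RES is lowest for AURKB.

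In starved cells, POG raised some of these genes, and the 4 that led with FBS were not called. Against NC, 18 genes were higher and 1 lower with POG (edgeR exact test, FDR under 0.05), with a median log2 change of 0.08. Of all tested genes 5.98% were higher and 8.6% lower, and 8.42% and 14.4% of those at or above the lowest level of the 41. With DEG 10 genes were higher and 1 lower (median 0.08), against 3.52% and 6.11% of all tested genes and 6.04% and 9.96% at that level. Both comparisons share the NC libraries, so their values are given side by side only.

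TTK (chr6:80003887-80042527), the checkpoint kinase also called MPS1, was at 84.6, 82.1 and 82.8 CPM with POG and 84.2 and 82.4 CPM with DEG, against 72.3 and 67.4 CPM in NC. The treated libraries lay above both NC libraries and above PC (76.4 and 76.1 CPM). The log2 change from NC was 0.25 with POG (SE 0.04, edgeR FDR 2.93e-07) and 0.25 with DEG (SE 0.05, edgeR FDR 5.4e-06). CDK1 was at 174, 172 and 173 CPM with POG and 170 and 171 CPM with DEG, against 145 and 156 CPM in NC. Its log2 change was 0.20 with POG (SE 0.03, edgeR FDR 3.14e-06) and 0.18 with DEG (SE 0.04, edgeR FDR 0.00048), the latter lost without NC replicate 1 (edgeR FDR 0.121). NUSAP1, which bundles spindle microtubules around chromosomes, was at 263, 267 and 268 CPM with POG and 257 CPM in both DEG libraries, against 230 and 233 CPM in NC. It rose by 0.20 with POG (SE 0.03, edgeR FDR 1.82e-07) and by 0.15 with DEG (SE 0.03, edgeR FDR 0.0014). For these 3 genes no treated library overlapped NC.

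Cyclin B2 passed the test with both compounds and cyclin B1 with neither. CCNB2 was at 88.4, 88.8 and 90.9 CPM with POG against 76.8 and 79.4 CPM in NC (log2 change 0.19, SE 0.04, edgeR FDR 3.87e-05), and its log2 change with DEG was 0.14. CCNB1 was at 154, 154 and 155 CPM with POG and 148 and 147 CPM with DEG, against 158 and 157 CPM in NC. Its log2 change was -0.03 with POG (edgeR FDR 0.776) and -0.09 with DEG (edgeR FDR 0.237). The checkpoint and ubiquitination genes were divided too, with MAD2L1 (0.18 and 0.17 with POG and DEG), UBE2C (0.17 and 0.17) and PTTG1 (0.17 and 0.15) called with both compounds and CDC20, BUB1B and BUB3 with neither. PLK1, AURKA and KIF20A were not called with either compound. Of the 11 spindle genes, POG raised 6 (NUSAP1, TPX2, KIF2C, KIF11, DLGAP5 and HMMR) and DEG 3 (NUSAP1, TPX2 and KIF2C). TOP2A, at 782, 777 and 795 CPM with POG and 751 and 757 CPM with DEG, rose with POG (log2 change 0.15, SE 0.03, edgeR FDR 0.000478) and did not pass with DEG (0.09, edgeR FDR 0.131). MKI67, at 931 to 934 CPM with POG and 925 and 930 CPM with DEG, lay above both NC libraries and did not pass (0.08, edgeR FDR 0.25, and 0.08, edgeR FDR 0.424). CDC25B was again lower, at 323, 324 and 322 CPM with POG (log2 change -0.10, SE 0.03, edgeR FDR 0.0186) and 318 and 322 CPM with DEG (-0.11, SE 0.03, edgeR FDR 0.0224).

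Of the 19 genes called with POG, 9 (CCNB2, CDK1, KIF2C, MAD2L1, NUSAP1, TOP2A, TPX2, TTK and UBE2C) were called whichever library was left out, and of the 11 called with DEG only TTK was. Fewer libraries also lower the power of the test, which was not separated from dependence on a library. The CDC25B calls were lost under plain library totals as well (edgeR FDR 0.0929 with POG and 0.0724 with DEG).

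With RES no gene of the 41 rose and 9 fell against NC (edgeR exact test, FDR under 0.05), with a median log2 change of -0.04. Of all tested genes 4.94% were higher and 6.25% lower, and 6.05% and 12.0% of those at or above the lowest level of the 41. MKI67 was at 762, 765 and 786 CPM with RES against 892 and 869 CPM in NC (log2 change -0.19, SE 0.04, edgeR FDR 0.000782). AURKB (chr17:8204733-8210600), the passenger complex kinase that corrects faulty attachments, was at 138, 140 and 139 CPM against 154 and 158 CPM (log2 change -0.17, SE 0.04, edgeR FDR 0.000551). In neither gene did the groups overlap. CDC25B, at 312, 318 and 318 CPM, fell by 0.13 (SE 0.03, edgeR FDR 0.00122), and CDCA3, an adaptor for the destruction of the CDK1 inhibitor WEE1, fell by 0.13 from 63.4 and 62.7 CPM to 57.5, 57.6 and 57.5 CPM (SE 0.04, edgeR FDR 0.0357). CCNA2, which encodes cyclin A2, fell by 0.13, and PLK1, CDC20, KIF11 and PRC1, the bundler of the central spindle, by 0.10 each. CDK1, TOP2A and CCNB1 did not pass, with log2 changes of -0.09 (edgeR FDR 0.107), -0.07 (edgeR FDR 0.163) and -0.02 (edgeR FDR 0.861). No gene of the 41 was called in every fit that left out 1 library. MKI67 lost its call without NC replicate 1 (log2 change -0.17, edgeR FDR 0.0673) and AURKB without NC replicate 2 (-0.14, edgeR FDR 0.0799), with changes of about the same size on fewer libraries. Under plain library totals 1 gene was higher and 4 lower, and the median log2 change was -0.01.

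**Figure D5:**
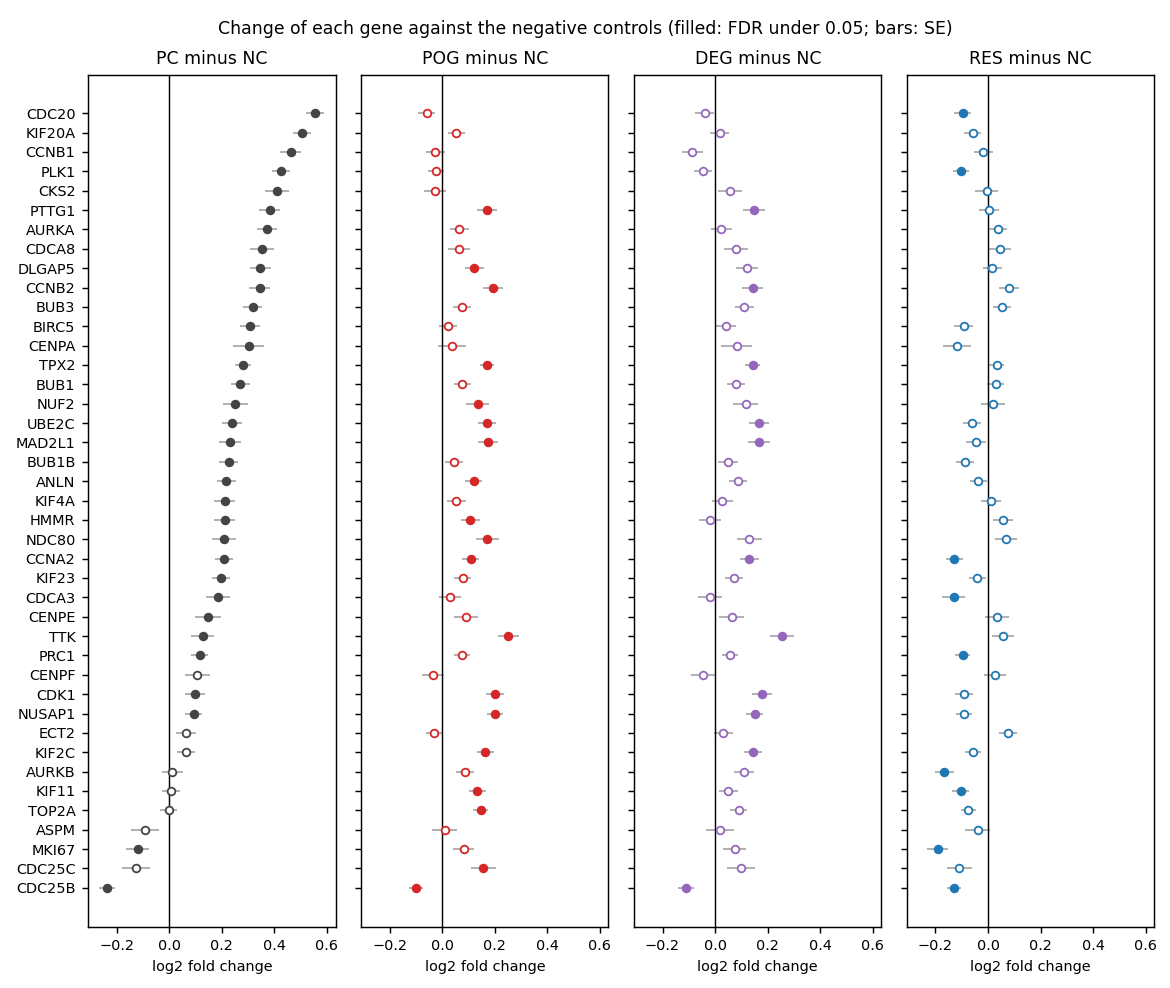
Log2 fold change against NC (x axis, bars for SE) of the 41 genes (y axis, ordered by the change in PC) for PC, POG, DEG and RES. Filled points passed an FDR under 0.05. The changes spread up to 0.56 with FBS, up to 0.25 with POG and DEG and down to -0.19 with RES.

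The 3 compounds were given at the same dose by mass (1 µg/mL), so their 3 pairs could be compared directly, without the NC libraries. Equal mass is not equal molar dose, and molar doses were not given. The largest contrast was between POG and RES. Of the 41 genes 27 were higher and 1 lower with POG (edgeR exact test, FDR under 0.05), with a median log2 difference of 0.12, against 13.7% and 14.1% of all tested genes and 22.6% and 19.0% at or above the lowest level of the 41. With DEG 21 were higher than with RES and 0 lower (median 0.11), against 10.4% and 10.9% of all tested genes and 19.8% and 13.3% at that level. With p-values adjusted over all 3 pairs together, the counts were 25 and 1 for POG against RES and 20 and 0 for DEG against RES.

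CDK1, at 146, 141 and 137 CPM with RES, was 0.29 higher on the log2 scale with POG (SE 0.03, edgeR FDR 1.37e-16) and 0.27 higher with DEG (SE 0.03, edgeR FDR 3.99e-11). NUSAP1, at 221, 219 and 212 CPM with RES, was 0.29 higher with POG (SE 0.03, edgeR FDR 3.7e-20) and 0.24 higher with DEG. The lowest POG or DEG library lay above the highest RES library for both genes. MKI67 was 0.27 higher with POG (SE 0.04, edgeR FDR 6.89e-10) and 0.27 higher with DEG (SE 0.04, edgeR FDR 1.76e-07). CDC25C was at 49.1, 46.5 and 46.0 CPM with POG and 46.8 and 43.9 CPM with DEG against 38.7, 39.9 and 39.2 CPM with RES (log2 difference 0.27, SE 0.04, edgeR FDR 1.97e-08, and 0.21). AURKB was at 169, 165 and 164 CPM with POG and 166 and 171 CPM with DEG. It differed from RES by 0.25 with POG and by 0.28 with DEG (SE 0.04, edgeR FDR 5.09e-11), the largest difference among the 41 for the latter pair. CCNA2, at 129, 125 and 127 CPM with RES and 151 and 153 CPM with DEG, was 0.26 higher with DEG (SE 0.03, edgeR FDR 1.46e-11). TOP2A differed by 0.22 with POG (SE 0.03, edgeR FDR 3.01e-11) and by 0.16 with DEG (SE 0.03, edgeR FDR 3.94e-05). CCNB1 stood at 158, 152 and 156 CPM with RES and did not differ past the threshold from POG (log2 difference -0.01, edgeR FDR 0.93) or DEG (-0.07, edgeR FDR 0.238).

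By role, POG exceeded RES in both chromosome and proliferation genes (MKI67 and TOP2A), 8 of 11 spindle genes, 4 of 6 checkpoint and ubiquitination genes and 5 of 8 genes of the CDK1 engine. The gene that was lower with POG was ECT2, the exchange factor that activates RhoA for the cleavage furrow, at 154, 152 and 154 CPM against 168, 162 and 166 CPM with RES (log2 difference -0.11, SE 0.03, edgeR FDR 0.00664). Leaving out any 1 library kept 21 of the 28 calls for POG against RES and 12 of the 21 for DEG against RES. The genes kept for the latter were AURKB, CCNA2, CDK1, KIF11, KIF2C, MAD2L1, MKI67, NUSAP1, PRC1, TOP2A, TTK and UBE2C.

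Between DEG and POG none of the 41 genes passed an FDR under 0.05 (edgeR exact test), and 2, HMMR and KIF11, had an unadjusted p under 0.05. Of all tested genes 0.573% were higher and 0.497% lower with DEG, and 1.13% and 0.733% of those at or above the lowest level of the 41. The log2 differences (DEG minus POG) ran from -0.13 for HMMR, a spindle assembly factor, to 0.08 for CKS2. The 95% intervals of the single genes (1.96 SE either side) stayed within -0.20 and 0.17. HMMR was at 80.3 and 82.2 CPM with DEG against 88.6, 88.3 and 88.9 CPM with POG. Its groups did not overlap, and it passed when p-values were adjusted over the 3 pairs together. For CDK1 the difference was -0.02, for MKI67 -0.01, for CCNB1 -0.06 (edgeR FDR 0.627) and for TOP2A -0.06 (edgeR FDR 0.58).

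Comparison of PC with the treated cells addressed which genes differed between FBS and each compound. Against POG, 25 of the 41 were higher in PC and 9 lower (edgeR exact test, FDR under 0.05), and against DEG 23 were higher and 6 lower. Of all tested genes 24.1% and 23.8% were higher and lower than with POG, and 22.3% and 21.1% than with DEG. At or above the lowest level of the 41 the shares were 35.5% and 31.7%, and 32.6% and 31.8%. Across the 41 genes the log2 difference fell with transcript length (rho -0.32 against POG and -0.34 against DEG). It was -0.08 and -0.09 without PC replicate 1, and -0.44 and -0.45 without PC replicate 2. Under plain library totals the split of calls was 15 higher and 11 lower against POG and 18 and 11 against DEG. Without PC replicate 1 the counts were 24 and 10 against POG and 24 and 6 against DEG. The genes higher in PC were led, in both, by CDC20 (0.62 against POG and 0.60 against DEG), CCNB1 (0.49 and 0.55), KIF20A (0.45 and 0.49) and PLK1 (0.45 and 0.47). The 9 genes lower in PC than with POG were CDC25C, MKI67, TOP2A, CDC25B, KIF11, TTK, NUSAP1, CDK1 and KIF2C. CDC25C lay lowest, at -0.28 against POG (SE 0.05, edgeR FDR 4.72e-08) and -0.22 against DEG (SE 0.05, edgeR FDR 0.000158). MKI67 differed by -0.20 against both (edgeR FDR 4.61e-05 and 0.000431), TOP2A by -0.15 and -0.09 (edgeR FDR 6.93e-05 and 0.0385) and CDK1 by -0.10 and -0.08 (edgeR FDR 0.0133 and 0.098). Without PC replicate 1 the calls against DEG were lost for MKI67 (edgeR FDR 0.0511) and TOP2A (edgeR FDR 0.463).

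CDK1, NUSAP1 and TTK were called higher in PC than in NC and lower in PC than with POG, 2 comparisons that share the PC libraries. Their log2 changes from NC to PC were small, at 0.10, 0.09 and 0.13. Under plain library totals these were 0.06, 0.05 and 0.08. Against POG the differences were -0.10, -0.11 and -0.13, and -0.17, -0.18 and -0.19 under plain library totals. The limit given above for the CDK1 call against NC applies here too.

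Against RES, 33 genes were higher in PC and 1, CDC25B, lower (edgeR exact test, FDR under 0.05), against 23.2% and 22.5% of all tested genes and 37.8% and 29.9% at or above the lowest level of the 41. The median log2 difference was 0.24. CDC20 (0.65), KIF20A (0.56), PLK1 (0.53) and CCNB1 (0.48) were again the largest. CDK1 differed by 0.19 (SE 0.03, edgeR FDR 2.3e-06), and CDC25B by -0.10 (SE 0.03, edgeR FDR 0.00344). MKI67 (0.07, edgeR FDR 0.201) and TOP2A (0.07, edgeR FDR 0.0746) did not pass. Without PC replicate 2 MKI67 turned to -0.06 (edgeR FDR 0.0385), and without PC replicate 1 it rose to 0.20.

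A further 54 genes of G2 and mitosis, named separately, were counted in the same comparisons. With FBS 21 were higher and 6 lower (38.9% and 11.1%, against 21.5% and 20.9% of all tested genes). At or above the lowest level of the 41 the shares were 32.9% and 30.5%. The rises were led by the checkpoint ATPase gene TRIP13 (0.42) and CKAP2L (0.40), a spindle protein gene. With POG 15 were higher and 0 lower (against 5.98% and 8.6% of all tested genes). These were led by SPC25 (0.24), a kinetochore subunit, and KIF15 (0.21), a spindle motor. With DEG 3 were higher and 0 lower (against 3.52% and 6.11%), a share near that of all tested genes. The median log2 change of the 54 was nonetheless alike, 0.09 with POG (51 positive) and 0.08 with DEG (47 positive). Between DEG and POG directly, 0 of the 54 were called. DEG had 2 libraries and POG 3. With RES 0 were higher and 13 lower (against 4.94% and 6.25%), led by ESPL1 (-0.28), which encodes separase, and CENPM (-0.28), a centromere protein. POG exceeded RES in 32 of the 54 (59.3%) and DEG exceeded RES in 24 (44.4%), with 0 lower in either. Of all tested genes 13.7% were higher and 14.1% lower with POG than with RES, and 10.4% and 10.9% with DEG. PC exceeded RES in 33 of the 54 (61.1%), with 3 lower, against 23.2% and 22.5% of all tested genes. Against POG and DEG the 54 were divided. In PC 11 were higher and 13 lower than with POG (median log2 difference 0.02), against 24.1% and 23.8% of all tested genes. Likewise 12 were higher and 10 lower in PC than with DEG (0.02), against 22.3% and 21.1%. Both splits were near the shares of all tested genes. The 15 subunits of the anaphase-promoting complex itself had 5 higher and 1 lower with FBS and 1 and 2 with RES. They had 0 and 0 with POG and 2 and 0 with DEG. The share higher with FBS (33.3%) was near that of tested genes at or above the lowest level of the 41 (32.9%). At that level the shares higher and lower were 6.05% and 12.0% with RES (6.67% and 13.3% of the 15). They were 8.42% and 14.4% with POG, and 6.04% higher with DEG (13.3% of the 15). The 30 genes of DNA replication and the G1/S step, which mark an earlier phase, had 6 higher and 3 lower with FBS. They had 4 and 2 with RES, 8 and 0 with POG and 5 and 0 with DEG. The share higher with FBS was near that of all tested genes (21.5%). Higher with POG were 26.7% of the 30, against 5.98% of all tested genes and 8.42% at or above the lowest level of the 41. That share was close to the 27.8% of the 54. For DEG it was 16.7%, against 3.52% and 6.04%, and for RES 13.3%, against 4.94% and 6.05%. Between POG and RES these 30 were split, with 7 higher and 6 lower. Both shares were near those of tested genes at or above the lowest level of the 41 (22.6% and 19%). RRM2, a ribonucleotide reductase subunit, was 0.29 higher with POG, and MCM5, a replicative helicase subunit, 0.21 lower on the log2 scale.

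Of 24 transcriptional regulators of the cell cycle, 2 were higher and 11 lower with FBS, against 21.5% and 20.9% of all tested genes. E2F5, at only 3.06 CPM in NC, rose by 0.51, the largest change of the list, and TFDP1, a partner of the E2F factors, by 0.19. The 95% intervals of the 24 regulators reached up to 0.84. CDKN1A, which encodes the CDK inhibitor p21, fell by 0.46, E2F8 by 0.31 and the DREAM member LIN54 by 0.17. With RES, FOXM1, the activator of G2/M genes, fell by 0.18 and NFYA, a subunit of the CCAAT-binding factor NF-Y, by 0.15, while RB1 rose by 0.13. With POG, MYBL2, the activator that joins MuvB, rose by 0.09, E2F7 by 0.16 and E2F8 by 0.29. With DEG, MYBL2 rose by 0.11 and E2F7 by 0.15, while FOXM1 fell by 0.11. Among the 35 genes with a promoter, 19 held the CHR letters searched for and 16 did not. The median log2 change with FBS was 0.21 in the former and 0.20 in the latter. For POG against RES it was 0.11 and 0.14, for POG against NC 0.08 and 0.10 (7 of 19 and 8 of 16 higher), for RES against NC -0.04 and -0.05, and for DEG against NC 0.06 and 0.10 (2 of 19 and 5 of 16 higher). No test was made of these differences. Only TTTGAA and TTCGAA in the 250 bases before the start were counted as a CHR. Other letters and positions were not searched, so the 16 cannot be taken as genes that lack a CHR.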

How the data were processed

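Paired-end sequencing of poly(A) mRNA was done on a NovaSeq instrument. The authors deposited raw counts per Ensembl gene, not normalized. Per the submitters' processing notes and the methods, reads were aligned to hg38 with STAR (BWA MEM was also named) and counted with featureCounts. Versions, annotation release, strand setting and the handling of multi-mapped reads are not given in the sources used here, so counts of the 23 members that overlap another gene are less certain, as are those of PTTG1, which has near-identical copies. Of 13 labelled samples, 12 had a column. DEG replicate 3 was not analysed here. All 12 columns matched a label. Replicate numbers followed accession order and are names only. Separate cultures were not stated for each library, so p-values measure the spread between these libraries, which may be technical.

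The exact test of edgeR 4.0.16 (R 4.3.3), which the study's methods name, was run on the counts after filterByExpr, with TMM scaling and tagwise dispersions from all 12 libraries (common BCV 3.20%), Benjamini-Hochberg adjustment over 17092 genes and a threshold of FDR under 0.05 for each of 10 comparisons. SEs came from the quasi-likelihood fit, and 95% intervals were 1.96 SE either side. On simulated counts with known changes, 44% of genes changed 1.2-fold were recovered for PC against NC and 50% for POG against NC, each over 17092 genes. The changed genes were drawn from all tested genes, many at lower levels than the 41. Recovery among the 41 was therefore not measured. Coordinates and lengths came from GENCODE annotation of hg38, promoters from RefSeq (GRCh38.p14). The members and lists (roles, further G2/M genes, anaphase-promoting complex, replication and G1/S genes, transcriptional regulators, cell type markers) were chosen with earlier results of these data known. Full statistics went to MKI67, TOP2A, CCNB1, CDK1 and the 4 largest called rises and falls of a comparison, and all 41 members could be named. Values of 1 regulator are not reported here. Alternatives were other scalings, filters, tests, dispersions and fold limits, and leaving out each library.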

Additional observations from a re-analysis of the deposited data

How the results depend on the processing

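No paired analysis was possible because the labels give no replicate numbers. The numbers of the 41 genes called were 33 (PC against NC), 9 (RES against NC), 19 (POG against NC), 11 (DEG against NC), 28 (POG against RES), 21 (DEG against RES), 0 (DEG against POG), 34 (PC against RES), 34 (PC against POG) and 29 (PC against DEG). With each library left out in turn, in the same order, they ran from 28 to 34, 1 to 5, 11 to 17, 3 to 9, 23 to 27, 14 to 21, 0 to 0, 33 to 38, 29 to 34 and 23 to 32. Where a group was left with 1 library, it was assumed to vary like the others. The changes were small, and with a required log2 change of at least 0.5 the numbers were 2 (PC against NC), 3 (PC against RES), 1 (PC against POG), 2 (PC against DEG) and 0 for RES, POG and DEG against NC and for POG and DEG against RES. For RES against NC plain library totals gave 5 and no filter 4. With dispersions from the compared groups alone, DEG against NC gave 20 and DEG against POG 3. The cause of these shifts was not tested. Under plain library totals the median log2 change of all tested genes moved by less than 0.1, a shift not small beside the changes of the 41. That median was -0.05 (PC against NC), -0.09 (PC against RES), -0.07 (PC against POG) and -0.06 (PC against DEG). For the 41 genes it was 0.17, 0.17, 0.04 and 0.07 in the same order. Plain totals also gave 23 higher and 0 lower for POG against NC, and 14 and 0 for DEG against NC.

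Among single genes, 844 values kept direction and call under the alternatives, 94 lost the call, 11 gained it and 7 reversed. With libraries left out in turn, MKI67 ran from -0.25 to 0.013 for PC against NC (the latter without PC replicate 1) and from -0.061 to 0.20 for PC against RES (the former without PC replicate 2). TOP2A ran from -0.055 to 0.062 for PC against NC, positive without PC replicate 1 and without NC replicate 2 (0.01), and was 0.0018 with a filter of mean 1 CPM. CCNB1 ran from -0.024 to 0.0077 for POG against RES, positive without RES replicate 1, and was 0.0089 for RES against NC with plain totals. Groups of 2 or 3 libraries limited the precision.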
